A study of Rattus norvegicus with 19 samples.

Results

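The genes described here code for the subunits of the proteasome, its regulators and its assembly factors, measured on Illumina arrays in rat trigeminal nerve and in tumours that arose from it. They were taken as every gene whose symbol begins with Psma, Psmb, Psmc, Psmd, Psme, Psmf or Psmg, which gave 43 genes with 1 probe each. A gene stayed in if at least 3 of the 19 arrays gave its probe a detection p-value below 0.05, and 42 of the 43 did, among 13095 features tested in all. Psma8 was detected on 0 arrays and was left out. Psmb11, a subunit of the thymus, passed at the limit with 3 arrays, none of them a nerve array, and Psmd8 had 6. No probe was named for Psmd10, Psmd14, Psme3, Psmf1, Psmg3 or Psmg4. Psmc3ip carries the prefix but codes for a factor of meiotic recombination, so it stands apart from the subunits below.

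The tumours were 12 malignant peripheral nerve sheath tumours (MPNST) and 1 microtumour, each from an adult rat that had received the alkylating carcinogen N-ethyl-N-nitrosourea (ENU) at a dose of 80 µg/g on postnatal day 1. The MPNST came from F1 hybrids of the BDIV and BDIX strains (7 tumours), from both parents (2 BDIX and 2 BDIV tumours) and from the congenic BDIX.BDIV-Mss4a (1). Of the 12 MPNST 6 were female. The microtumour was that of a congenic male. The controls were 6 pools of untreated trigeminal nerves aged 85 days, with 1 male and 1 female pool from each of BDIV, BDIX and the congenic strain, so that the F1 hybrids had no nerve of their own. Pooling can narrow the spread between nerve arrays, but the pools were not always closer together than the tumours. The SD of the log2 signal was 0.79 in nerve and 0.24 in MPNST for Psmd3, and 0.39 and 0.93 for Psmb8. The tumour-bearing rats are labelled only as adult, and the microtumour, being 1 array, gives no spread. One text field of the nerve samples names ENU, but they are tagged untreated and were used as such.

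The proteasome is the main protease of the cytosol and nucleus and degrades proteins that carry ubiquitin chains. Its barrel-shaped core, the 20S particle, has outer rings of alpha subunits that gate the entrance and inner rings of beta subunits, of which Psmb5, Psmb6 and Psmb7 hold the cutting sites. The 19S particle on its end binds ubiquitin chains with its non-ATPase subunits (Psmd genes) and unfolds the substrate with a ring of ATPases (Psmc genes). Interferon-gamma induces Psmb8, Psmb9 and Psmb10, which replace Psmb5, Psmb6 and Psmb7 in newly made cores and form the immunoproteasome, together with Psme1 and Psme2, the subunits of the PA28 activator. The immunoproteasome cuts peptides for display on MHC class I molecules.

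The sequences before 3 of these genes are shown. Psme1 and Psme2 were the interferon-inducible members called higher in the tumours, while Psmb10 holds the same motif more than once. The call of Psme2 was narrow (adjusted p = 0.0484 in limma) and stood in 5 of the 18 fits without a single array. Psmb8, which was not called, had a larger mean difference (0.69 against 0.55 on the log2 scale). The sequences are the 250 bases upstream of the start in RefSeq (GRCr8), read on the gene's own strand. Capitals mark the core of the interferon-stimulated response element (GAAA, 2 bases of any kind, GAAA), searched on both strands. Psme2 lies at chr15:33052752-33053001 on the minus strand, Psmb10 at chr19:50743293-50743542 on the minus strand and Psme1 at chr15:33038721-33038970 on the plus strand.
Psme2: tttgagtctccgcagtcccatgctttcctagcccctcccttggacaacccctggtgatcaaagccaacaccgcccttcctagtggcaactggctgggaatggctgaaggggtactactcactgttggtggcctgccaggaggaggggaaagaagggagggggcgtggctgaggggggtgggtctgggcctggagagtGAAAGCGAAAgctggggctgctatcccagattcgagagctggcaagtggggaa
Psmb10: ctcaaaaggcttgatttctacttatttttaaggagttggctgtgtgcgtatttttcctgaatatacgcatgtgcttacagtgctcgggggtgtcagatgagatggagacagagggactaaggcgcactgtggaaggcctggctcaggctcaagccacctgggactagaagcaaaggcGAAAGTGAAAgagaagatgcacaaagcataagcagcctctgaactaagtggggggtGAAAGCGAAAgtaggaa
Psme1: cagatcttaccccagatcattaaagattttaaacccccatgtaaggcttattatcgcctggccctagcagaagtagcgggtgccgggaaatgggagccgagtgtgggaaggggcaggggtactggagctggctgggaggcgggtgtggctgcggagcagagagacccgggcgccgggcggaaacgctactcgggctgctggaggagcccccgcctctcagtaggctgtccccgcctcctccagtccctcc
Psme2 held 1 match, at 53 to 44 bases before the start, and Psmb10 held 2, at 73 to 64 and at 17 to 8 bases before it. Psme1 held none in this window, although it lies on the same chromosome with only Emc9 between it and Psme2. Of the 42 genes, 38 had a promoter in the table. The motif was present in 5 of these 38 (13.2%), namely Psma4, Psmb3, Psmb10, Psmd7 and Psme2, against 3.29% of all 27457 promoters. The gamma-activated sequence TTCNNNGAA was found in 4 of 38 (10.5%, against 7.52%), Psmb8 among them, and the antioxidant response element TGACNNNGC in 7 of 38 (18.4%, against 10.2%). A match describes letters in a window and does not show that a factor binds there.

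On each array between 44.1% and 54.1% of all probes were detected. The proteasome genes were broadly expressed: 35 of the 42 (83.3%) were detected on all 19 arrays, against 55.6% of all features. The arrays fell into 2 ranges of background, with a 25th percentile of raw signal of 80.4 to 94.6 on 11 arrays (9 MPNST and the 2 congenic nerve pools) and of 59.0 to 67.5 on the other 8 (3 MPNST, 4 nerve pools and the microtumour). With the tissue groups but not strain held constant, limma found 13 of the 42 genes (31.0%) to differ between the ranges, against 25.2% of all features. Among them, high minus low background was -1.16 ± 0.16 (SE, log2 scale) for Psma7 and 0.65 ± 0.07 for Psmc4. Nerve 4, the female BDIX pool, stood apart for these genes: it was the lowest of the 6 pools for 20 of the 42 (47.6%), against 18.1% of all features, while nerve 5 and nerve 6, the BDIV pools, were the highest for 18 and 13 (42.9% and 31.0%, against 15.6% and 13.2%). Values without nerve 4 are also given below for several genes. Markers of the tissue were as labelled: 11 sensory neuron genes and 5 myelin genes were measured, and 9 and 5 of them were lower in MPNST, while 12 of 12 measured cell cycle genes were higher.

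MPNST were set against nerve to see how the proteasome genes differ between tumour and its tissue of origin. Levels are log2 signals after quantile normalization, and differences were tested with limma across all features, two-sided, with Benjamini-Hochberg adjustment and a threshold of 0.05. The genes moved in both directions. Of the 42, 13 passed the test (31.0%, against 42.7% of all features). They split into 9 that were higher (21.4%, against 22.5%) and 4 that were lower in MPNST (9.52%, against 20.2%). The median difference over the 42 was 0.01 on the log2 scale, against 0.02 over all features, and the single genes ranged from -0.79 for Psmc5 to 1.36 for Psmd3. With median scaling in place of quantile normalization the split was 2 higher (Psmd3 and Psme1) and 5 lower, and of all calls 31.9% were higher in place of 52.8%. The median difference was then -0.15 over the 42 and -0.01 over all features. For 0 of the 42 did all MPNST lie above all nerve pools, or all below (7.61% and 7.96% of all features). Bulk RNA cannot tell fewer cells of a type apart from less RNA per cell, and the summed signal of the sensory neuron markers was 69675 to 130516 in nerve against 3870 to 35514 in MPNST, that of the myelin markers 41018 to 100693 against 14612 to 30394. Their part in the differences below was not tested.

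**Figure D1:**
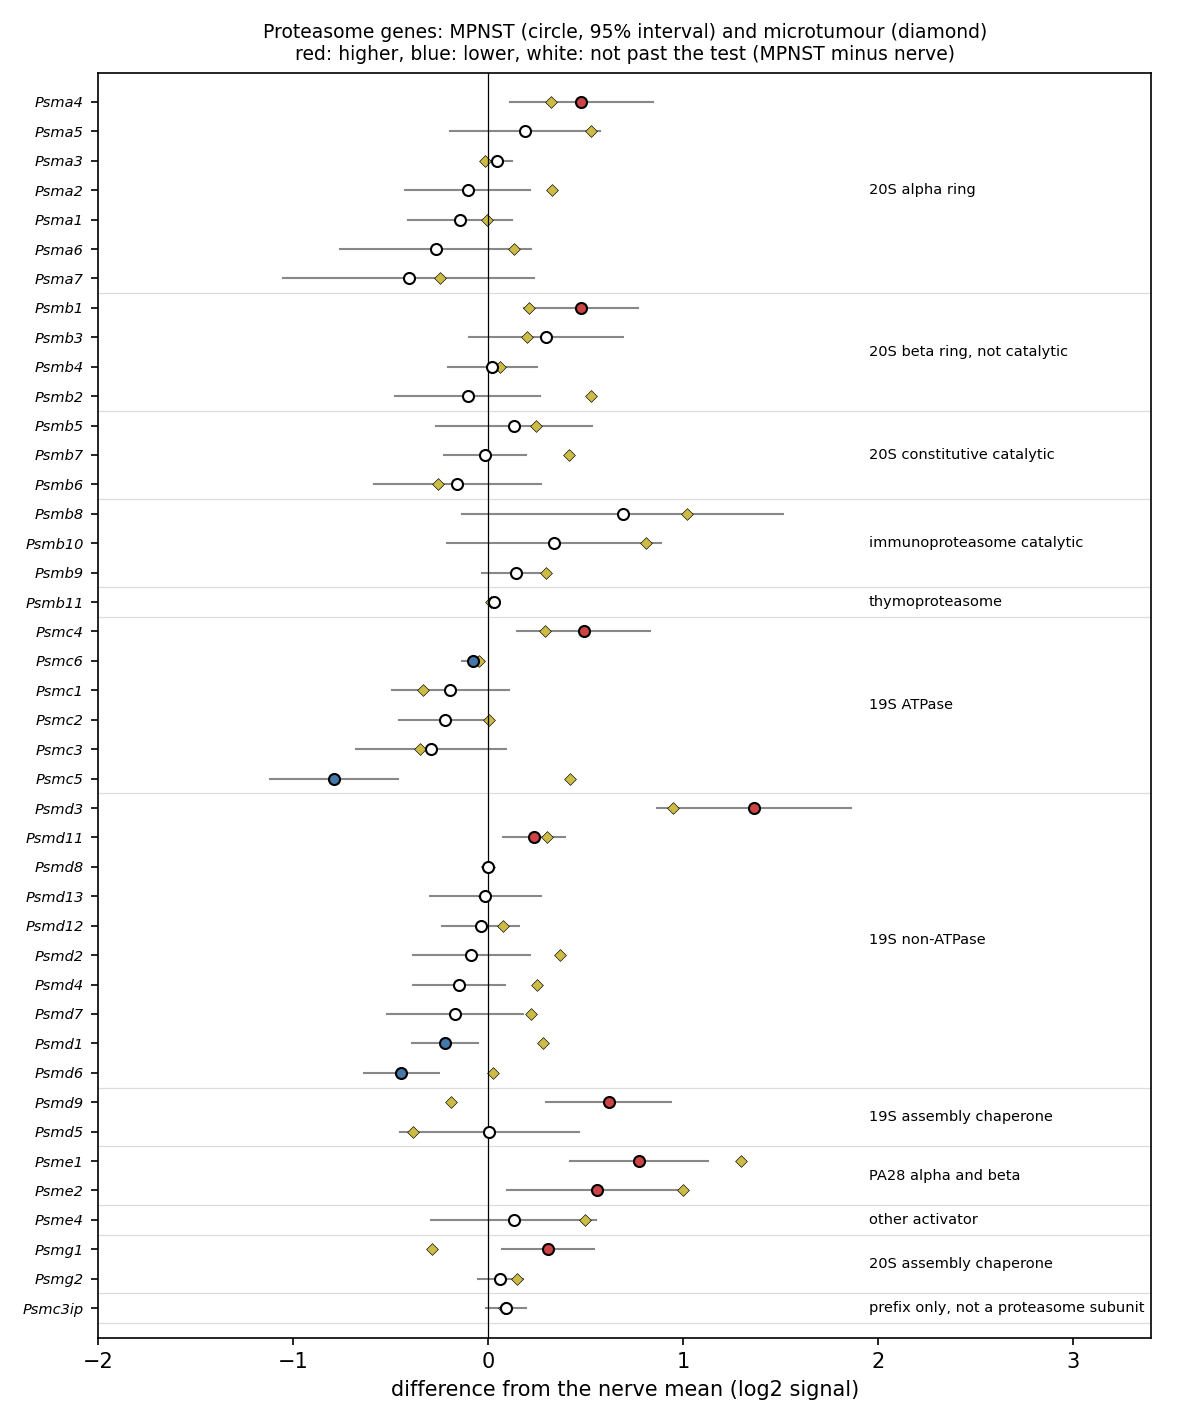
Difference from the nerve mean in log2 signal (x axis) for the 42 genes (y axis), grouped by their place in the complex. Circles are MPNST minus nerve with the 95% interval (12 MPNST, 6 pools), red where higher and blue where lower by the test, white otherwise, and diamonds are the single microtumour. Psmd3 lies farthest to the right at 1.36 and Psmc5 farthest to the left at -0.79.

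Among the core genes, 2 of the 14 constitutive subunits passed, both higher, against 42.7% of all features called and 22.5% called higher. Psmb1, a beta subunit without a cutting site, had a lowest, median and highest level of 12.10, 12.93 and 13.24 in the nerve pools and of 12.95, 13.34 and 13.54 in MPNST. All 12 MPNST lay above the nerve mean and 9 above the highest pool. The difference was 0.48 ± 0.14 on the log2 scale (SE, 12 MPNST and 6 pools), a 1.39-fold rise with an adjusted p of 0.0102, and 0.33 (adjusted p = 0.0227) without nerve 4. By strain it was -0.23 in BDIV and 1.04 in BDIX. The call of Psmb1 was lost with median scaling, with sex and strain as covariates and without the F1 hybrids. Psma4, a subunit of the alpha ring, ran from 11.13 over 11.20 to 11.63 in nerve and from 10.69 over 11.92 to 12.09 in MPNST. Its range in MPNST spans that of the pools because MPNST 12, a BDIV tumour, was lowest of all arrays, and 9 of 12 MPNST lay above the highest pool. Psma4 rose 1.39-fold (0.48 ± 0.17, adjusted p = 0.0354), but this call was lost without any of 12 single arrays, nerve 3, 4, 5 and 6 among them (adjusted p up to 0.0711), and within the low-background arrays the difference was -0.03.

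The constitutive cutting subunits did not pass the test. Psmb5, which cuts after hydrophobic residues, had a lowest, median and highest level of 11.09, 12.43 and 12.66 in nerve and of 11.9971, 12.37 and 12.88 in MPNST, a difference of 0.13 (95% interval -0.27 to 0.53). It turned to -0.09 without nerve 4, whose level of 11.09 was far below the other pools. Psmb6, which cuts after acidic residues, ran from 10.64 to 12.33 in nerve and from 11.09 to 12.10 in MPNST, with medians of 11.68 and 11.55 and a difference of -0.16 (-0.59 to 0.27). Psmb7, which cuts after basic residues, ran from 11.29 to 12.01 in nerve and from 11.44 to 11.97 in MPNST, with medians of 11.87 and 11.83 and a difference of -0.02 (-0.23 to 0.19). For each of these 3 genes the nerve pools overlapped the tumours, and nerve 4 was the lowest array of all. Without it the differences of Psmb6 and Psmb7 were -0.37 and -0.12. The widest intervals in the core belonged to Psma7 and Psma6 of the alpha ring, with differences of -0.41 (-1.05 to 0.23) and -0.27 (-0.76 to 0.22). Their levels followed the background range: within the high-background arrays the differences were 0.06 and 0.0009, and within the low-background arrays 0.09 and 0.19. Among the pools the range cannot be told apart from strain, since only the congenic pools had high background.

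The 19S particle held changes of both signs, with 3 of 16 subunits higher and 4 lower, against 22.5% and 20.2% of all features. Psmd3, a subunit of the lid that caps the particle, had the largest difference of the 42 genes. Its lowest, median and highest levels were 10.18, 10.76 and 11.95 in nerve and 11.80, 12.34 and 12.65 in MPNST. The high pools were both of the BDIV strain (11.95 and 11.89), and MPNST 12, a BDIV tumour at 11.80, was the only tumour below them. Psmd3 was 2.57-fold higher in MPNST (1.36 ± 0.24, adjusted p = 0.00018), and the difference held in all 18 fits that left out a single array, between 1.21 and 1.56. Psmd11, a scaffold subunit of the lid, ran from 12.06 over 12.24 to 12.48 in nerve and from 12.28 over 12.43 to 12.75 in MPNST. It was 1.18-fold higher (0.24 ± 0.08, adjusted p = 0.0176), with all 12 MPNST above the nerve mean but only 5 above the highest pool, and without nerve 2 the adjusted p was 0.0525.

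Of the other lid and base subunits, Psmd6 fell, from 12.19, 12.53 and 12.71 (lowest, median and highest) in nerve to 11.78, 12.06 and 12.34 in MPNST. All 12 MPNST lay below the nerve mean and 8 below the lowest pool. The difference of -0.45 ± 0.09 (adjusted p = 0.000862) was close to the values within the high-background arrays (-0.44) and the low-background arrays (-0.49). Psmd1, a large scaffold of the base, ran from 10.46 over 10.71 to 10.92 in nerve and from 10.25 over 10.47 to 10.68 in MPNST, a difference of -0.22 ± 0.08 (adjusted p = 0.0330). All 12 MPNST were below the nerve mean, yet the call was lost in 4 of the 18 fits without a single array (MPNST 6, nerve 1, nerve 5 or nerve 6, adjusted p up to 0.0982). The other 6 non-ATPase subunits, Psmd2, Psmd4, Psmd7, Psmd8, Psmd12 and Psmd13, differed by -0.17 (Psmd7) to -0.0026 (Psmd8) and did not pass, and Psmd8 was near the background.

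The ATPase ring was split. Psmc5, one of its 6 members, ran from 10.44 over 10.97 to 11.27 in nerve and from 9.48 over 10.17 to 10.70 in MPNST. All 12 MPNST were below the nerve mean and 10 below the lowest pool. Psmc5 was 1.73-fold lower in MPNST (-0.79 ± 0.16, adjusted p = 0.000552), also by -0.90 and -0.56 within the high- and low-background arrays. Psmc4, a neighbour in the ring, ran from 11.65 over 11.82 to 12.44 in nerve and from 11.74 over 12.54 to 12.87 in MPNST. It was 1.40-fold higher (0.49 ± 0.16, adjusted p = 0.0218), but the tumours at 11.74, 12.03 and 12.04 were those 3 with low background, and within the ranges the difference was 0.26 and 0.17. Its call was lost without nerve 4, nerve 5 or nerve 6 (adjusted p up to 0.0586). Psmc6 was called lower at -0.08 ± 0.03 (adjusted p = 0.0254), near the background, with 5 of 6 pools and 8 of 12 MPNST detected, and the call was lost without nerve 3, nerve 5 or nerve 6. Psmc1, Psmc2 and Psmc3 differed by -0.19, -0.22 and -0.29 and did not pass. Psmd3 and Psmc5, which moved in opposite directions, are both on chromosome 10.

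Among the assembly factors, Psmd9, a chaperone of the ATPase ring, ran from 8.02 over 8.80 to 9.08 in nerve and from 8.89 over 9.38 to 9.92 in MPNST. All 12 MPNST exceeded the nerve mean and 10 the highest pool. It was 1.53-fold higher (0.62 ± 0.15, adjusted p = 0.00329), and 0.48 without nerve 4. Within the high- and low-background arrays the difference of Psmd9 was 0.65 and 0.30, and by strain it was -0.13 in BDIV and 1.08 in BDIX. Its call was lost with median scaling, with sex and strain as covariates and without the F1 hybrids. Psmg1, a chaperone of the core, ran from 10.62 over 11.29 to 11.54 in nerve and from 11.23 over 11.53 to 11.81 in MPNST. It was 1.24-fold higher (0.31 ± 0.11, adjusted p = 0.0361), falling to 0.18 without nerve 4, and the call stood in 12 of the 18 fits without a single array. The other chaperones, Psmd5 and Psmg2, differed by 0.01 and 0.06 and did not pass, nor did Psme4, an activator of the nucleus, at 0.13 (-0.29 to 0.55).

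Of the 5 interferon-inducible genes, both PA28 subunits were called higher, Psme2 narrowly, and the 3 cutting subunits did not pass the test. Psme1, the alpha subunit of PA28, had a lowest, median and highest level of 11.16, 11.48 and 12.20 in nerve and of 11.97, 12.23 and 13.04 in MPNST. The highest pool was nerve 3, a BDIX pool, and without it every tumour would have lain above every pool, since the next pool stood at 11.61. Psme1 was 1.71-fold higher in MPNST (0.77 ± 0.17, adjusted p = 0.00128), also by 0.79 and 0.92 within the high- and low-background arrays. Psme2, the beta subunit, ran from 7.97 over 8.85 to 9.01 in nerve and from 8.76 over 9.22 to 10.23 in MPNST. It was 1.47-fold higher (0.55 ± 0.22, adjusted p = 0.0484), with 7 of 12 MPNST above the highest pool. This call stood in 5 of the 18 fits without a single array, and without nerve 4, at 7.97, the difference was 0.40 with an adjusted p of 0.142.

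Psmb8 varied more between tumours than nearly any other feature. Its lowest, median and highest levels were 7.64, 8.46 and 8.77 in nerve and 8.20, 8.62 and 11.30 in MPNST, and its SD of 0.93 over the 12 MPNST was at the 98.5th percentile of all features. MPNST 2 (11.30), MPNST 11 (10.21) and MPNST 1 (9.85) stood above the others, which lay between 8.20 and 8.96. The mean difference of 0.69 ± 0.39 (adjusted p = 0.166) did not pass, and it was 0.55 without nerve 4. Psmb10 ran from 8.84 over 10.25 to 10.83 in nerve and from 9.93 over 10.33 to 11.35 in MPNST, a difference of 0.34 ± 0.26 (adjusted p = 0.314) that was 0.08 without nerve 4. MPNST 1 (11.35) and MPNST 11 (11.08) were its only tumours above every pool. Psmb9 was near the background, at 7.25, 7.31 and 7.40 in nerve and 7.26, 7.38 and 7.98 in MPNST, and was detected in 4 of 6 pools and 11 of 12 MPNST. Its difference of 0.14 ± 0.08 (adjusted p = 0.184) did not pass, and MPNST 11 and MPNST 2 were its highest arrays.

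**Figure D2:**
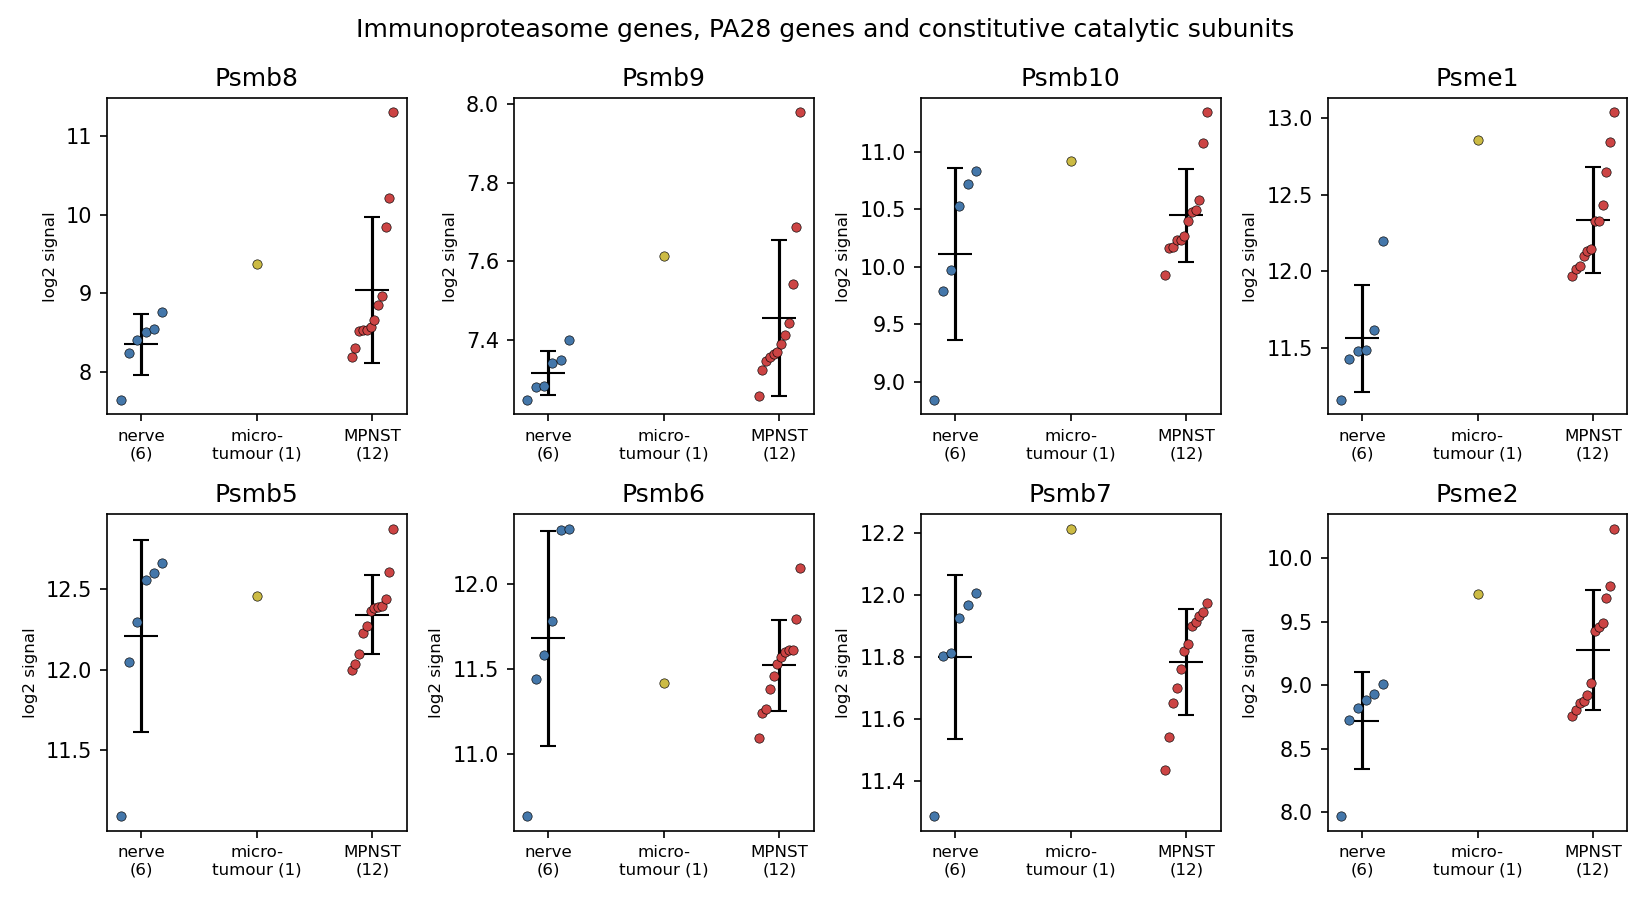
Log2 signal (y axis, own scale in each panel) of Psmb8, Psmb9, Psmb10 and of their constitutive counterparts Psmb5, Psmb6, Psmb7 below them, with Psme1 and Psme2 at the right; each point is 1 array, and bars are the mean and SD. Psme1 and Psme2 are shifted upward in MPNST, while in Psmb8 the tumours at 11.30, 10.21 and 9.85 stand above the rest, and the lowest nerve pool in each panel but that of Psmb9 is nerve 4.

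Because each interferon-inducible cutting subunit takes the place of a constitutive one, the difference within each of the 3 pairs was computed per array and compared between MPNST and nerve with an exact permutation test over samples, two-sided. Psmb8 minus Psmb5 was 0.56 higher in MPNST on the log2 scale (exact p = 0.165), and above the nerve mean in 10 of 12 tumours. Psmb9 minus Psmb6 was 0.30 higher (exact p = 0.127) and Psmb10 minus Psmb7 0.35 higher (exact p = 0.156), above the nerve mean in 11 and 10 of 12 tumours. Adjusted over the 3 pairs, p was 0.165 for each. Psmb9 was near the background in both groups, and its pair is made of a difference of 0.14 for Psmb9 and -0.16 for Psmb6, neither of which passed, so that it does not measure an exchange of the subunits. Without nerve 4, where Psmb6 was lowest, Psmb9 minus Psmb6 was 0.50 higher by the same exact test (adjusted p = 0.0068), Psmb8 minus Psmb5 was 0.64 higher (adjusted p = 0.208) and Psmb10 minus Psmb7 only 0.20 higher (adjusted p = 0.411). The smallest p that the 18564 splits of 12 against 6 allow is 5.39e-05.

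Taking the median of the 5 interferon-inducible genes on each array, as a difference from the nerve mean, MPNST 2 (1.28), MPNST 11 (1.06), MPNST 1 (0.77) and MPNST 3 (0.61) were highest, and MPNST 6 was lowest at 0.06. All 12 tumours were above 0 on this measure, but nerve 3 at 0.41 exceeded 7 of them and nerve 4 was at -0.71. The 0 is the mean of all 6 pools, nerve 4 among them, and MPNST 5, 6 and 7 lay close to it (0.08, 0.06 and 0.07). Without nerve 4 the difference of MPNST from nerve fell from 0.69 to 0.55 for Psmb8 and from 0.34 to 0.08 for Psmb10. It fell from 0.77 to 0.69 for Psme1 and from 0.55 to 0.40 for Psme2. The median measure was not computed without nerve 4. The constitutive core genes did not follow: their medians were -0.02, 0.10 and -0.06 in MPNST 2, 11 and 1. The tumours with high interferon-inducible genes came from F1 hybrids (MPNST 1 and 2), BDIV (MPNST 11) and BDIX (MPNST 3), and from both sexes.

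**Figure D3:**
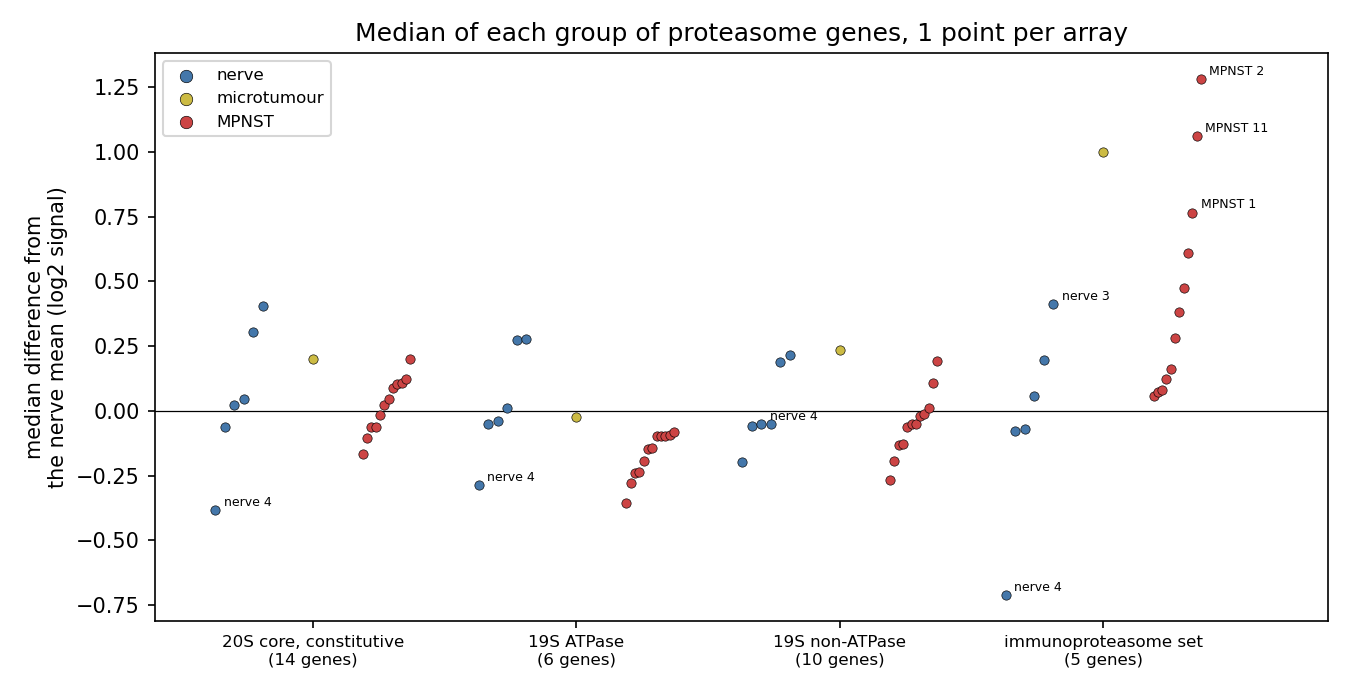
Median difference from the nerve mean (y axis, log2 signal) over the genes of 4 groups (x axis), 1 point per array in blue for nerve, yellow for the microtumour and red for MPNST. The 12 MPNST lie from 0.06 to 1.28 for the interferon-inducible genes, and nerve 4 is lowest at -0.71 there and at -0.38 for the constitutive core.

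Across the 12 MPNST, 10 pairs of the 5 genes and their 5 relations with Irf1, an interferon-induced transcription factor, were computed, 15 in all, with permutation tests. All 10 pairs had a positive Pearson's r, from 0.15 to 0.88. After Benjamini-Hochberg adjustment over the 15, the permutation test passed for Psmb9 with Psme1 (r = 0.88, raw p = 0.00038, adjusted p = 0.0057), Psme1 with Psme2 (r = 0.81, raw p = 0.00175, adjusted p = 0.0131) and Psmb8 with Psme1 (r = 0.77, raw p = 0.00533, adjusted p = 0.0267). By Spearman's rho, the permutation test passed for Psme1 with Psme2 alone (rho = 0.80, adjusted p = 0.0440), and rho was 0.62 and 0.61 for the other 2 (adjusted p = 0.143 each). These relations rest on few tumours: without the 2 farthest from the median of the x gene, r fell from 0.88 to 0.62, from 0.81 to 0.64 and from 0.77 to 0.40 and 0 of the 15 passed. Within the 9 high-background MPNST, r was 0.88, 0.80 and 0.78, and 0 of the 15 passed after adjustment. With Irf1, r ranged from 0.05 to 0.60 and none of the 5 passed.

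Of the 16 measured genes of antigen processing and the interferon-gamma response, a list chosen with earlier results known, 8 were higher in MPNST and 1 was lower, with a median difference of 0.39. Over all features 22.5% were higher and 20.2% lower, with a median of 0.02, and the lists that follow are to be read against the same shares. Irf1 rose by 1.43, the receptor gene Ifngr1 by 0.95 and the GTPase gene Gbp2 by 0.90 on the log2 scale, and the peptide transporter genes Tap1 and Tap2 by 0.76 and 0.60. The kinase gene Jak1 fell by 0.64. The MHC class I genes RT1-A1, RT1-A2 and RT1-CE5 differed by 0.46, 0.06 and 0.07 and did not pass. RT1-A1 and RT1-A2 differed by -0.22 and -0.31 within the high-background arrays and by 0.68 and 0.39 within the low-background arrays. Tap1 lies between Psmb8 and Psmb9 on chromosome 20, in the MHC region, and the 12 tumours ranged from 7.69 to 8.96 for Tap1 against 7.39 to 7.77 in the pools. Ifng itself was near the background, detected in 2 of 6 pools and 0 of 12 MPNST. Of the 10 macrophage markers measured, 7 were higher in MPNST and 0 lower, and their summed signal was 4883 to 10022 in nerve, 11018 to 35484 in MPNST and 16908 in the microtumour. C1qc, C1qb and C1qa, subunits of complement C1q, rose by 2.41, 2.32 and 2.08. Laptm5 of the same list went the other way, by -0.86, and did not pass. Within the high- and low-background arrays it differed by -1.10 and -1.07. Ptprc and Cd163, near the background, differed by 0.01 and 0.11 and did not pass either. MPNST 1 had the highest sum (35484) and MPNST 11 had 20951, while MPNST 2, highest for Psmb8, had 13750. Of the 8 T and NK cell markers measured, none passed and their sum was 1234 to 1292 in nerve and 1218 to 1325 in MPNST, near the background. The part of macrophages in the interferon-inducible genes was not tested.

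Of 8 partners and regulators of the proteasome measured, 0 were higher and 3 lower: the deglycosylase gene Ngly1 by -1.52, Usp14, a deubiquitinase bound to the 19S particle, by -0.71 and the ubiquitin receptor gene Adrm1 by -0.14. Nfe2l2, a transcription factor that acts on antioxidant response elements, differed by -0.50 (adjusted p = 0.0930) and did not pass. Pomp, the maturation factor of the core, differed by 0.36 (adjusted p = 0.0981). Of 10 genes of ubiquitin supply and shuttling, 0 were higher and 4 lower. Among the latter Ubqln2 and Zfand5 each differed by -0.93, and by -0.81 and -0.74 within the high-background arrays and -0.85 and -0.76 within the low-background arrays. Nsfl1c differed by -1.20, but by only -0.48 within each of the ranges. Their summed signal was 17602 to 27248 in nerve and 13666 to 21324 in MPNST, so the groups overlapped.

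The microtumour was compared with both groups in the same fit, with its spread taken from the other arrays. No proteasome gene passed against nerve (0 of 42, against 2.64% of all features) or against MPNST (0 of 42, against 2.53%). At an unadjusted limma p under 0.05, 2 and 5 of the 42 passed (13.9% and 13.5% of all features). The microtumour was above the nerve mean for 31 of the 42 genes (73.8%, against 47.9% of all features), with a median difference of 0.20, and above all 6 pools for 14 (33.3%, against 22.6%). It was below all pools for 0 (against 19.9%). Nerve 4 was the lowest pool for 20 of the 42 (47.6%, against 18.1% of all features), and these counts were not repeated without it. Without nerve 4 the median difference was 0.09. All 5 interferon-inducible genes were above the nerve mean, by 1.29 for Psme1 (level 12.85, adjusted p = 0.0693), 1.02 for Psmb8 (9.37), 1.00 for Psme2 (9.72), 0.81 for Psmb10 (10.92) and 0.30 for Psmb9 (7.61). Psmc5, which fell in MPNST, stood at 11.36 in the microtumour, above every nerve pool and every MPNST, and 1.21 above the MPNST mean (adjusted p = 0.0568). Psmd3, at 11.90, was closer to the MPNST mean of 12.32 than to the nerve mean of 10.96. The sensory neuron markers of the microtumour, with a summed signal of 77898, were within the range of the pools (69675 to 130516), and its cell cycle sum of 6946 was too (4920 to 8614). Such sums follow the brightest genes. By the median difference from the nerve mean, the microtumour lay outside the pools for both lists. It was at -0.81 for the sensory neuron markers (pools -0.46 to 0.72) and at 0.14 for the cell cycle markers (pools -0.06 to 0.07).

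Among the 12 MPNST, no proteasome gene passed limma's test of females against males (0 of 42, and 0% of all features after adjustment). At an unadjusted p under 0.05, 1 of 42 and 6.88% of all features passed. For the tumour change, none passed the interaction term between the sexes either (0 of 42, and 0% of all features, against 0 and 1.25% unadjusted). Without a call over all features, these tests do not show that the sexes are equal. Between strains 1 of 42 passed limma's F test, against 1.99% of all features. This was Psmd5, a chaperone of the 19S base, at 8.36 and 8.62 in the BDIV tumours, 7.36 and 7.74 in the BDIX tumours and 7.61 to 8.02 in the F1 hybrids (adjusted p = 0.0379). Both BDIV tumours were on low-background arrays, and with the background range as a block 0 of 42 passed. That block rests on MPNST 9, the only F1-hybrid tumour with low background.

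The difference between tumour and nerve was next compared between BDIV and BDIX, with 2 tumours and 2 pools for each. It differed for 8 of the 42 genes (against 11.9% of all features), namely Psma4, Psmb1, Psmb2, Psmb5, Psmc1, Psmd1, Psmd3 and Psmd9, and the change in BDIV minus that in BDIX was below 0 for all 8. This is a signed difference: Psmc1 and Psmd1 fell further in BDIV (-0.98 and -0.64) than they moved in BDIX (0.28 and -0.06). Over the 42 genes BDIV minus BDIX was below 0 for 31 (73.8%, against 49.1% of all features). High BDIV pools or low BDIX pools lower this difference by construction. The BDIV pools nerve 5 and nerve 6 were the highest for 18 and 13 of the 42, and the BDIX pool nerve 4 the lowest for 20. The genes also share the same few arrays, so the 31 are not independent results. Psmd3 was at 11.95 and 11.89 in the BDIV pools and at 12.32 and 11.80 in the BDIV tumours, but at 10.18 and 10.20 in the BDIX pools and at 12.37 and 12.38 in the BDIX tumours. Its change was thus 0.14 in BDIV and 2.18 in BDIX, a difference of -2.04 (adjusted p = 0.000341 in limma), and the strains lay further apart in the pools than in the tumours. The congenic pools, at 10.82 and 10.69, lay between those of the parent strains. For Psmb2 the change was -0.62 in BDIV and 0.91 in BDIX, and for Psmb1 -0.23 and 1.04. Nerve 4, 1 of the 2 BDIX pools, was the lowest pool for both, at 11.39 for Psmb2 (the others 12.15 to 12.44) and 12.10 for Psmb1. In fits without a single BDIV or BDIX array the difference lay between -1.94 and -1.12 for Psmb2 and between -1.51 and -1.02 for Psmb1. In Psmb2 the tumours differed as well, at 12.68 and 12.75 in BDIX and 11.88 and 11.72 in BDIV.

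**Figure D4:**
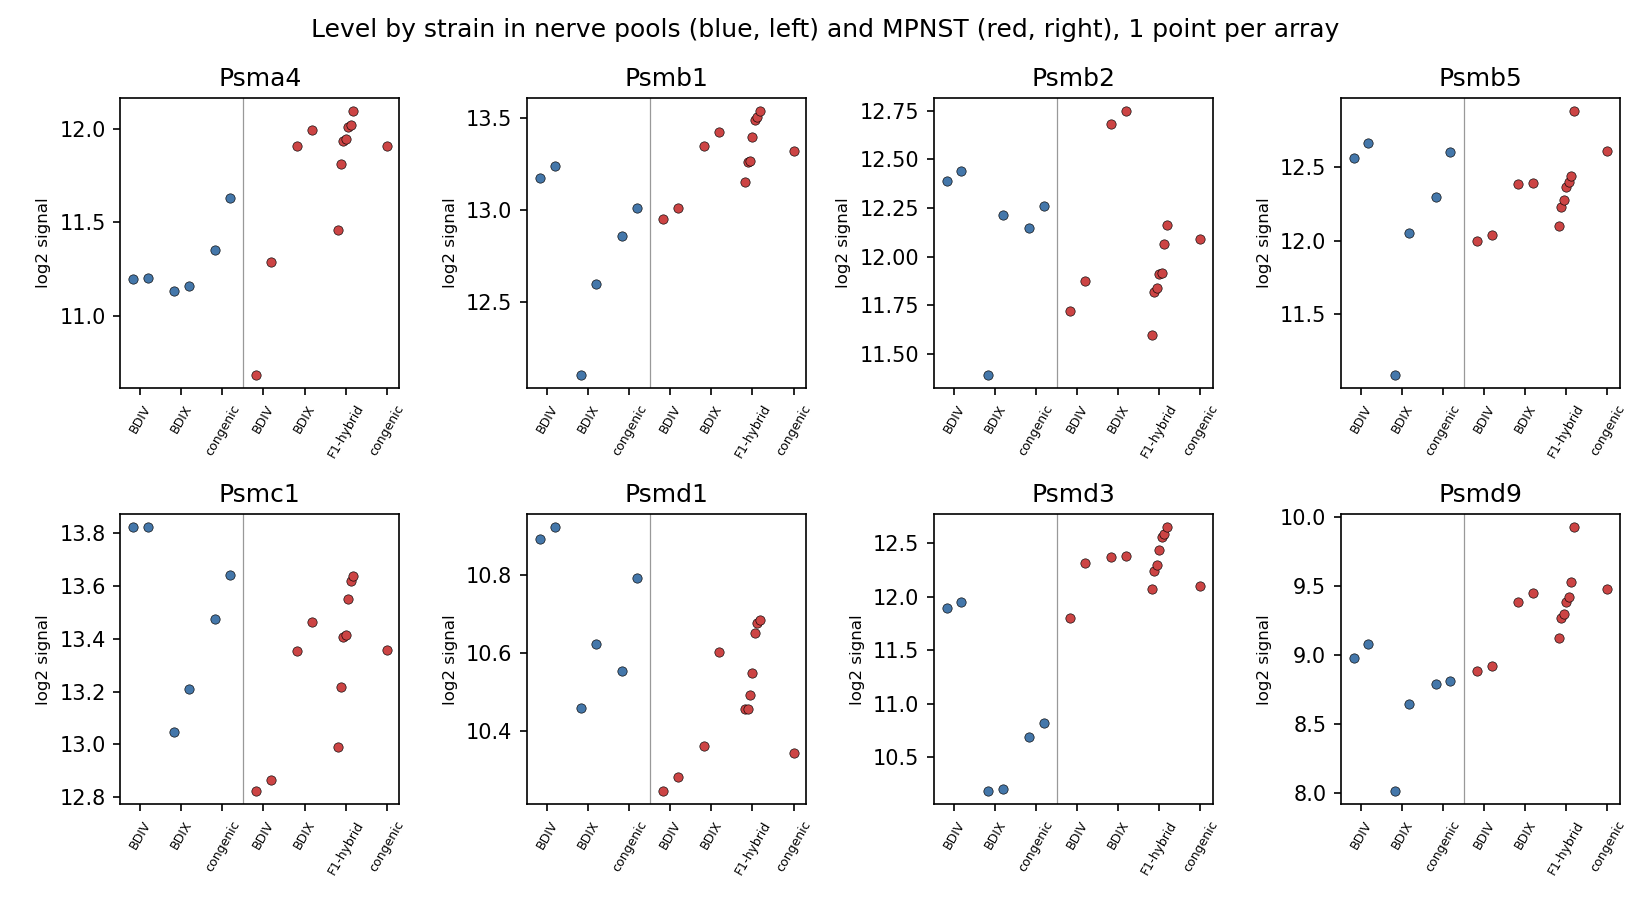
Log2 signal (y axis, own scale in each panel) by strain (x axis) for the 8 genes whose tumour change differed between BDIV and BDIX; each point is 1 array, nerve pools in blue at the left and MPNST in red at the right. For Psmd3 the BDIV pools (11.95 and 11.89) lie near the tumours, and the BDIX pools (10.18 and 10.20) far below them.

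Psmd3, Psmb1, Psmb2 and Psmc1 kept this call in all 8 fits that left out a single BDIV or BDIX array, whereas Psma4, Psmb5 and Psmd9 kept it in 1 and Psmd1 in 3. Without nerve 4 the count was 4, as it was without MPNST 3, nerve 5 or nerve 6. The BDIV tumours were on low-background and the BDIX tumours on high-background arrays. Within a strain and tissue, only the F1-hybrid tumours fell into both ranges, with MPNST 9 alone at low background. A block for the range therefore rests on that 1 array. With the range as a block only 2 of the 8 kept the call, Psmd3 (-2.08, adjusted p = 0.00522) and Psmb1 (-1.01, adjusted p = 0.0388). The other 6 lost it, with adjusted p-values from 0.0633 for Psmc1 and 0.0873 for Psmb2 to 0.380 for Psma4. In their place 2 other genes passed with the block, Psma7 (-1.71, adjusted p = 0.0246) and Psmd13 (-1.35, adjusted p = 0.0499).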

How the data were processed

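Per the labels, total RNA was extracted with TRIZOL and labelled as biotinylated cRNA, and per the submitters' processing notes the arrays were read with BeadStudio 3.0. The authors deposited raw average signals as an intensity per probe, with a detection p-value for each intensity, and a table of background-subtracted and scaled intensity, used as an alternative. In that table nerve 5 and nerve 6 matched each other's raw columns (17 of 19 matched their own, with a largest residual of 0.0145), and labels were kept as each table gives them.

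The neqc function of limma 3.58.1 (R 4.3.3) corrected the raw intensities for background, quantile normalized them and took log2 with an offset of 16, which draws dim values together, so folds of dim genes are understated. The brightest probe on average stood for a symbol with several. Symbols came from the array annotation, updated by gene ID. Groups were fitted with limma in 1 model of 19 arrays (16 residual degrees of freedom), sex with strain as covariate, strain with sex, and the differences between strains or sexes as interaction terms. The test of the background range was added after seeing the data. Named were all members as the results required, up to 3 higher and 3 lower genes of each context list, and Irf1, Tap1, Tap2 and Nfe2l2. Some list genes that did not pass were named as well.

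The members and lists were chosen with earlier results of these data known. For arrays, their number limits the precision. Nothing says how many animals a pool held, so p-values measure the spread between these arrays. The alternatives were median scaling, the authors' values, another offset and filters, blocks, covariates, array weights and leaving out single arrays.

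Replicate numbers did not pair the arrays: 2 of 6 pairs of MPNST and nerve had correlated deviations over 0.1 (range -0.302 to 0.21).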

Additional observations from a re-analysis of the deposited data

Results flagged for a closer look

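Outliers were looked for in the 6 nerve pools for each of the 42 genes by comparing the gap of the lowest or highest pool to the next with the range of the group. In 4 of the 42, nerve 4 lay apart from the other 5 pools: Psma2 at 11.87 (the others 12.18 to 12.22), Psmb2 at 11.39 (12.15 to 12.44), Psmb7 at 11.29 (11.80 to 12.01) and Psme2 at 7.97 (8.73 to 9.01). Over all 13095 features the same comparison set nerve 4 apart in 3.04% and any of the pools in 7.54%, against 9.52% of the 42 genes for each. Chance alone marks about 1 in 20 groups, and these 4 genes share the same array.

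The tumour change differed between BDIV and BDIX for 8 genes by limma's interaction term. The differences on the log2 scale were -1.02 for Psma4, -1.27 for Psmb1, -1.53 for Psmb2, -1.41 for Psmb5, -1.26 for Psmc1, -0.58 for Psmd1, -2.04 for Psmd3 and -1.21 for Psmd9, with adjusted p-values from 0.000341 (Psmd3) to 0.0392 (Psma4).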

How the results depend on the processing

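The direction of the difference between MPNST and nerve held under every alternative for 12 of the 13 genes called; for Psma4 it turned to -0.027 within the low-background arrays. Of these 13 calls, with median scaling 6 remained (Psmc5, Psmc6, Psmd1, Psmd3, Psmd6 and Psme1), while the authors' values kept 9 and 0 remained within the low-background arrays, where 3 MPNST faced 4 pools. Among genes not called, Psmb5 turned to -0.087 with median scaling, -0.0083 with the background block and -0.028 within the high-background arrays, and lay between -0.093 and 0.22 without single arrays. Psmb7 turned to 0.021 with nerve 5 and 6 averaged and to 0.019 with the replicate block, and lay between -0.12 and 0.025 without single arrays.

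The 9 higher calls in MPNST became 2 with median scaling, 4 with sex and strain as covariates and 5 with the replicate block. They became 3 without the F1 hybrids (Psmd3, Psme1 and Psme2) and 1 within the low-background arrays. Such counts can hold newly called genes: the 1 within the low-background arrays was Psmc3ip, which was not among the 9. The 4 lower calls became 2 with nerve 5 and 6 averaged, 2 within the high-background and 0 within the low-background arrays. Leaving out single arrays gave 5 to 9 higher and 2 to 4 lower calls. Over all features, 5590 calls became 3631 without the F1 hybrids, 3670 within the high-background and 2205 within the low-background arrays, and median scaling moved the share of higher calls from 52.8% to 31.9%. The numbers did not pair the arrays, and 1 of the arrays correlated best with its own number.

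For the microtumour, 1 gene was called against nerve with the block (Psmc4, 0.51) and 1 against MPNST with array weights (Psmc5, 1.28). Its 346 calls over all features against nerve became 570 with median scaling and 592 with the block, and its 331 against MPNST became 548 with covariates, 553 with array weights, 588 with the authors' values and 756 under median scaling. For strain in MPNST, the 1 gene became 0 with median scaling or the block, and 260 features became 5 with the block; leaving out single arrays gave 0 to 1 genes and 61 to 180 features. The 8 genes of the BDIV and BDIX comparison became 4 with the block (2 of the 8 kept, 6 lost and 2 others added) and 4 to 13 without single arrays, and its 1558 features became 798 with the block and 882 to 1731 without single arrays. Psmb9 minus Psmb6 passed without nerve 4 (0.50), an alternative chosen after seeing the data, and the 3 relations among MPNST became 0 without the 2 farthest tumours or within the high-background arrays. In the comparisons between strains the block rests on MPNST 9 alone. The causes were not tested.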
